A study of Mus musculus with 40 samples.

Results

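Expression of 44 cell cycle and DNA replication genes was examined in RNA-Seq of mouse aorta, in 2 experiments in which mice were infused with the vasopressor angiotensin II (Ang-II). The genes were taken by symbol. The genotype experiment listed 17402 genes, with all 44 among them. The CsA experiment listed 15399 genes, with 41 of the 44 among them, and did not list Ccnb1, Bub1 or Aurkb. Every listed member reached the minimum used for testing, a signal of at least 1 in at least 2 libraries.

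The genotype experiment held 22 libraries and compared male Cn-Ctl mice, which per the sample labels carried floxed CnB1 without the Myh11-CreERT2 transgene, with male SM-Cn-/- mice, which carried both. The study's methods also count Cre-positive mice with unfloxed CnB1 among its Cn-Ctl animals. CnB1 is the regulatory subunit of the phosphatase calcineurin (Cn), and Myh11-CreERT2 is a tamoxifen-dependent Cre recombinase that is active in smooth muscle cells only, so that the other cells of the vessel wall keep the gene. Mice of both genotypes received 1 mg of tamoxifen daily for 5 days at 10 to 12 weeks of age and were used 6 weeks later, untreated (basal) or after 2, 6 or 24 h of Ang-II at 1 µg per kg per min from a minipump. The CsA experiment held 18 libraries from C57BL/6J wild-type (WT) mice without pretreatment, and from WT mice given the calcineurin inhibitor cyclosporin A (CsA, 5 mg per kg per day) by minipump from 5 days before Ang-II, each basal or after 2 or 24 h of Ang-II. WT mice carried no pump for the CsA vehicle. Treated Cn-Ctl, WT and CsA mice were kept only when their systolic pressure exceeded 130 mmHg, whereas all treated SM-Cn-/- mice were kept. Each library was made from 3 pooled aortas freed of adventitia and perivascular tissue. Per its methods, the study discarded 1 untreated Cn-Ctl replicate that lay far from the other 2 in a principal component analysis. There were 3 libraries per group, except 2 each in Cn-Ctl basal and Cn-Ctl Ang-II 24 h, which are replicates 2 and 3. The p-values therefore measure only the spread between these pools.

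Values are given as signal, the deposited normalized read count scaled to library size. Library depth, in units of 1e+06 reads, was 2.73 to 10.25 for the genotype libraries and 18.98 to 38.9 for the CsA libraries. Summed smooth muscle markers (Myh11, Acta2, Tagln, Cnn1 and Smtn) exceeded every other marker sum in all libraries. Ppp3r1, the gene that encodes CnB1, was not called between the genotypes at any time. Its signal was 104 and 78.8 in Cn-Ctl basal against 83.5, 69.5 and 48.9 in SM-Cn-/- basal (log2 difference -0.46 ± 0.36 SE, adjusted p = 0.983, limma). The groups also overlapped after 2, 6 and 24 h. Values per gene include reads outside a deleted part, so they do not test the deletion directly. Per its methods, the study checked recombination by PCR on a piece of aortic tissue, measured CnB by immunoblot of aortic extracts, and left out SM-Cn-/- mice without a verified deletion. Directions between genotypes below are given by the labels.

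A cell enters the cycle when D-type cyclins with Cdk4 and Cdk6 inactivate the retinoblastoma protein and release E2F factors, which switch on cyclin E and the genes for DNA replication. Origins are licensed in G1 by loading of the MCM helicase with Cdc6 and Cdt1, DNA is copied in S phase with the sliding clamp Pcna and with nucleotides made by ribonucleotide reductase, and the mitotic genes are switched on last, in G2. Smooth muscle cells of the adult aorta are largely quiescent and can re-enter the cycle after injury or hypertension.

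The 7 genes of G1 entry (Ccnd1, Ccnd2, Ccnd3, Cdk4, Cdk6, the Cdk inhibitor Cdkn1b and Rb1) had median signals of 17.6 to 292 over the genotype libraries and 24.2 to 222 over the CsA libraries. The 20 genes of G2 and mitosis had medians of 0.1199 to 3.04 over the genotype libraries, and the 17 of them listed with CsA had medians of 0.747 to 3.02. The ranges of the other 3 roles reached into both of these. They were 0.915 to 23.6 for the 4 genes of the G1/S transition (Ccne1, Ccne2, Cdk2 and E2f1), 0.599 to 54.7 for the 9 genes of origin licensing and the helicase (Mcm2 to Mcm7, Cdc6, Cdt1 and Cdc45) and 2.15 to 51.3 for the 4 genes of DNA synthesis (Pcna, Rrm1, Rrm2 and Tyms) over the genotype libraries. A mitotic gene had a median of 0 to 18 reads per genotype library and 18 to 75 reads per CsA library, so that changes in single mitotic genes were hard to detect at this depth, above all in the genotype experiment.

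Per kb of exon, a scale for a rough comparison between genes, the order of the leading 6 was the same in both experiments. The length was that of all annotated exons of a gene merged, which can exceed the transcript expressed and places such genes lower. Both experiments used the same lengths, so their orders are not independent. It ran from Ccnd2 through Pcna, Cdkn1b, Cdk4 and Ccnd3 to Mcm6. The median signal per kb was 31.1 for Ccnd2, 21.4 for Pcna, 20.05 for Cdkn1b, 17.5 for Cdk4, 12.1 for Ccnd3 and 11.7 for Mcm6 in the genotype experiment. In the CsA experiment it was 23.6 for Ccnd2, 17.9 for Pcna, 15 for Cdkn1b, 14.9 for Cdk4, 13.2 for Ccnd3 and 12.9 for Mcm6. Every pair of neighbours in this order overlapped in their ranges over libraries. Ccnd1, the D-type cyclin best known as a target of growth signals, had rank 10 and 8 in this order, at 3.74 and 5.56 per kb.

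**Figure D1:**
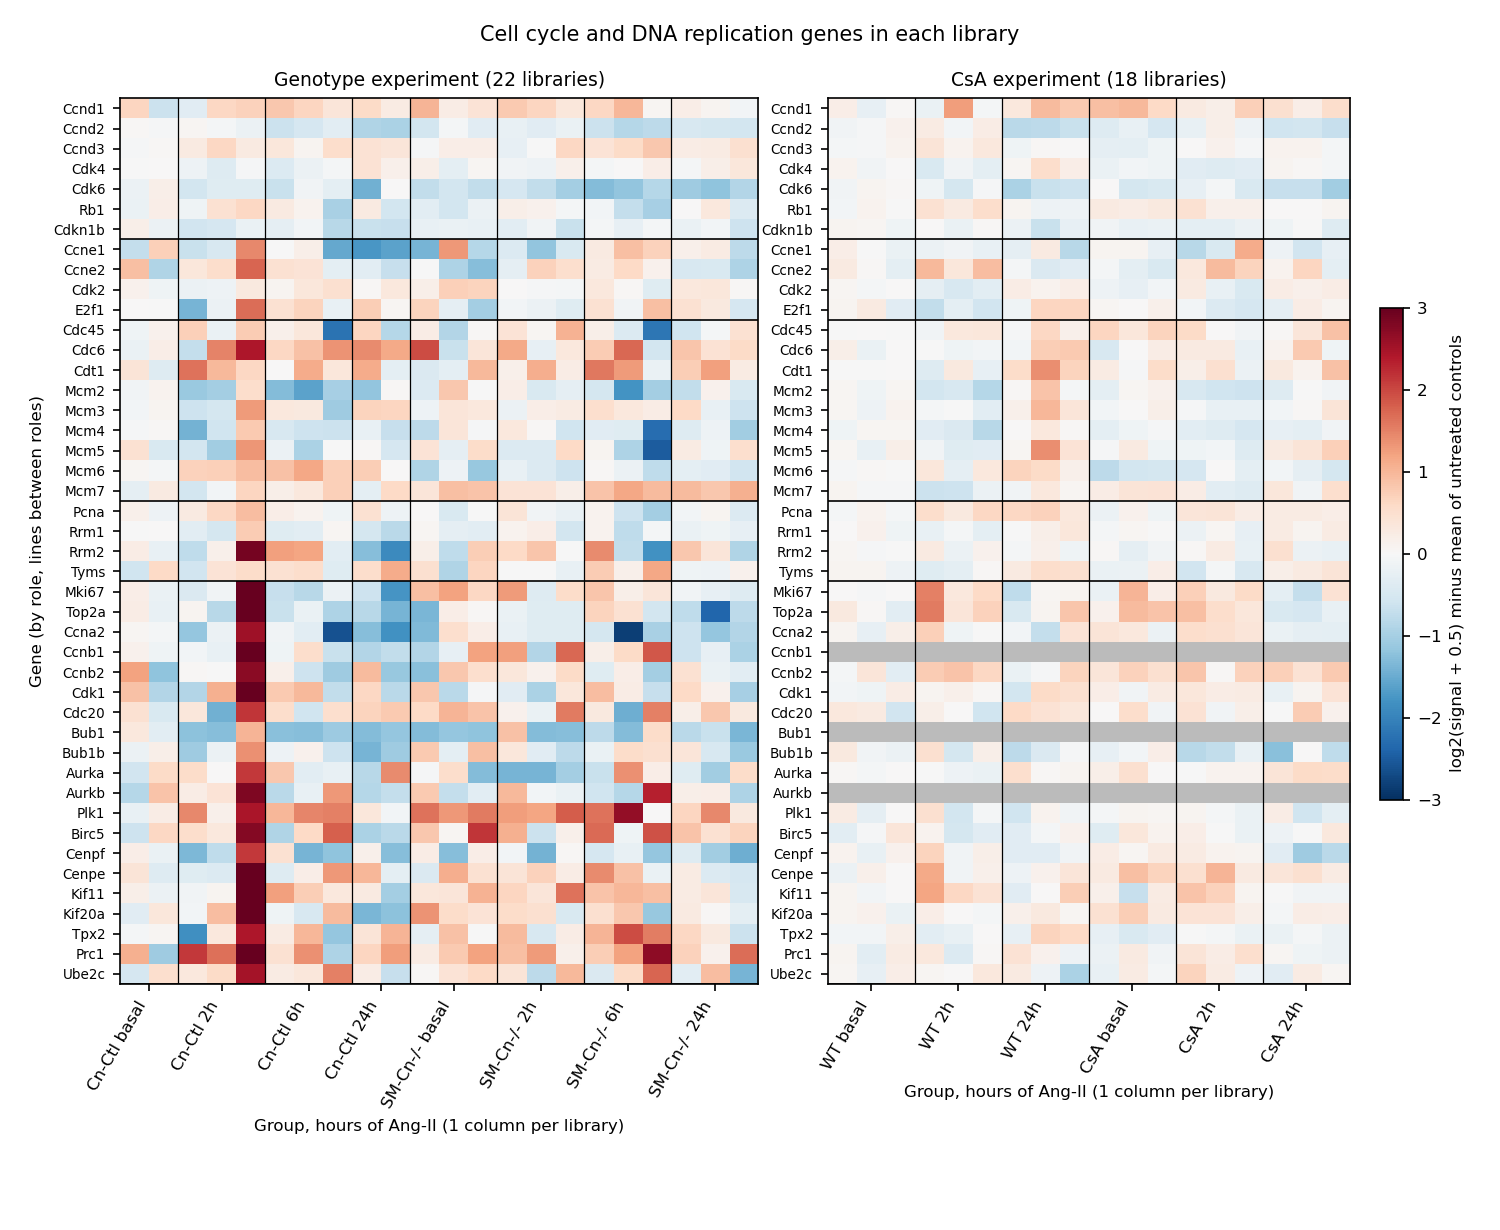
Each cell is the signal of 1 member (rows, grouped by role) in 1 library (columns, grouped by genotype or pretreatment and by hours of Ang-II), as a log2 ratio to the mean of the untreated controls of its experiment, Cn-Ctl basal or WT basal, with colours limited to plus or minus 3. Grey marks the 3 genes not listed in the CsA experiment. A single column, Cn-Ctl Ang-II 2 h replicate 3, is red through nearly all of the 20 mitotic genes.

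Mitotic genes share promoter elements that were sought in the 250 bases before the start site, in the RefSeq promoters of GRCm38.p6, where 35 of the 44 members had an entry. The E2F site was searched as TTTCGCGC, TTTGGCGC or TTTCCCGC, the CHR (cell cycle genes homology region) as TTTGAA and the CCAAT box as CCAAT, each on both strands. A CCAAT box was present in 15 of 16 mitotic promoters (93.8%) against 33.9% of all 32851 promoters of the same length, the exception being Birc5. A CHR was present in 7 of the 16 (43.8%) against 15.99% of all promoters, and all 7 also held a CCAAT box, a combination found in 5.55% of all promoters. E2F sites were present in 4 of 8 licensing promoters (50%) against 1.53% of all promoters. The CRE (TGACGTCA) was found in 2 of the 35 members, Mcm5 and Cenpe, and in 1.55% of all promoters. The AP-1 site (TGACTCA or TGAGTCA, which read as each other on the opposite strands) was found in 0 of the 35 members and in 4.46% of all promoters. These matches describe letters in a window and not bound sites.

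The promoters of 3 mitotic genes whose signal stood apart in 1 library, and of Mcm6, the member called most often, are shown 5′ to 3′ on the strand of the gene, with matches to any of the motifs in capitals. Mki67 lies at chr7:135716380-135716629, Top2a at chr11:99024190-99024439, Cdk1 at chr10:69352913-69353162 and Mcm6 at chr1:128359706-128359955, all on the minus strand.
Mki67: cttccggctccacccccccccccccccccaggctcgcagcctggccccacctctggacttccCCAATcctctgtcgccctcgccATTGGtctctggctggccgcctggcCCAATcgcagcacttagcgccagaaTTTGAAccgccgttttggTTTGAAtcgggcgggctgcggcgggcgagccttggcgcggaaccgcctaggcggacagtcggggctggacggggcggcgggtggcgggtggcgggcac
Top2a: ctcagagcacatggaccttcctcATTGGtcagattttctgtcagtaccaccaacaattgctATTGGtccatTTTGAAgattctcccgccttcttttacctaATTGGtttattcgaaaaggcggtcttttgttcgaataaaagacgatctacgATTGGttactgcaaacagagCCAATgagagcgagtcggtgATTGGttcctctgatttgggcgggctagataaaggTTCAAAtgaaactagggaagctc
Cdk1: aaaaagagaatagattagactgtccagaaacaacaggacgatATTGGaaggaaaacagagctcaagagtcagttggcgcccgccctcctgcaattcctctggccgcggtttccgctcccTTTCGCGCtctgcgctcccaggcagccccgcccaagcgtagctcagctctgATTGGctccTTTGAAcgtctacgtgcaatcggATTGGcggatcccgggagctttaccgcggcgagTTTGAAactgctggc
Mcm6: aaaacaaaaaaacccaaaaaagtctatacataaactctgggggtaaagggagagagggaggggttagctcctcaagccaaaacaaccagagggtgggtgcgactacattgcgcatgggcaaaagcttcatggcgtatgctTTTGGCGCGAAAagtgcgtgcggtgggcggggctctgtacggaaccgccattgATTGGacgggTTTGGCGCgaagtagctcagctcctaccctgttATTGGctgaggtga
Mki67 and Cdk1 each had 2 CHR and 3 CCAAT matches, and Top2a had 2 CHR and 6 CCAAT matches. Mcm6 had no CHR match but 3 E2F matches, of which the pair at -110 and -106 from the start site overlap on opposite strands.

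The mitotic genes were low in every library but 1. Mki67, the proliferation antigen, was at 1.97 and 1.37 in Cn-Ctl basal, at 1.097, 1.50 and 30.4 in Cn-Ctl Ang-II 2 h, at 0.838, 0.703 and 1.41 after 6 h and at 0.902 and 0.129 after 24 h, the last of these being 0 reads. Those labelled SM-Cn-/- had Mki67 at 3.51, 4.47 and 2.81 (basal), 4.71, 1.15 and 2.67 (2 h), 3.32, 1.93 and 2.26 (6 h) and 1.51, 1.31 and 1.15 (24 h). Replicate 3 of Cn-Ctl Ang-II 2 h alone lay above 5, with 198 reads of Mki67 against 5 and 9 in the other 2 libraries of its group. Top2a, the topoisomerase that untangles chromosomes, showed the same library apart. Its signal was 2.99 and 2.10 in Cn-Ctl basal, 2.69, 1.182 and 28.6 after 2 h, 1.40, 2.11 and 1.097 after 6 h and 1.1796 and 0.647 after 24 h. Those labelled SM-Cn-/- had Top2a at 0.672, 2.93 and 2.58 (basal), 2.10, 1.82 and 1.86 (2 h), 4.32, 3.65 and 1.56 (6 h) and 1.27, 0.0772 and 1.24 (24 h).

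In that library 30 of 44 members had their highest signal of all 22 libraries, against 8.98% of the genes tested. The share was uneven over the cycle. It held for 19 of 20 mitotic genes, the exception being Plk1, for 3 of 4 genes of DNA synthesis, for 3 of 4 of the G1/S transition and for 4 of 9 of licensing, but for 1 of 7 genes of G1 entry. The signal was 23.0 for cyclin A (Ccna2), 26.1 for Prc1, 14.8 for Tpx2, 14.01 for Kif20a and 11.7 for Cdk1. For Ccna2, Prc1, Kif20a and Cdk1 this was more than 3 times the highest of the other 21 libraries. The ratio to that next highest library had a median of 3.20 over the mitotic genes and 0.767 over the genes of G1 entry. Rrm2, the S-phase subunit of ribonucleotide reductase, reached 16.9 against at most 5.82 elsewhere, whereas Ccnd2 was at 344 beside 403 and 375 in the same group.

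The summed signal of the 20 mitotic genes was 238 there, from 1544 reads, and 16.5 to 49.97 in the other 21 libraries, with a median of 25.9. In the CsA experiment the sum over the 17 listed genes was 20.6 to 43.2, highest in WT Ang-II 2 h replicate 1, where Mki67 was 8.34 and Top2a 6.95. The marker sums of Cn-Ctl Ang-II 2 h replicate 3 lay within the range of the other libraries of its experiment for each of 8 cell types. Its smooth muscle sum was 26758 (20202 to 48416 elsewhere), its macrophage sum 255.8 (68.3 to 290.6, 1 library higher), its fibroblast sum 2301 (724 to 2612, 2 libraries higher) and its lymphocyte sum 1.53 (0.368 to 15.6). The part of any cell type in the mitotic signal of this library was not tested. In these bulk samples, more cells of a type and more RNA per cell cannot be told apart.

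**Figure D2:**
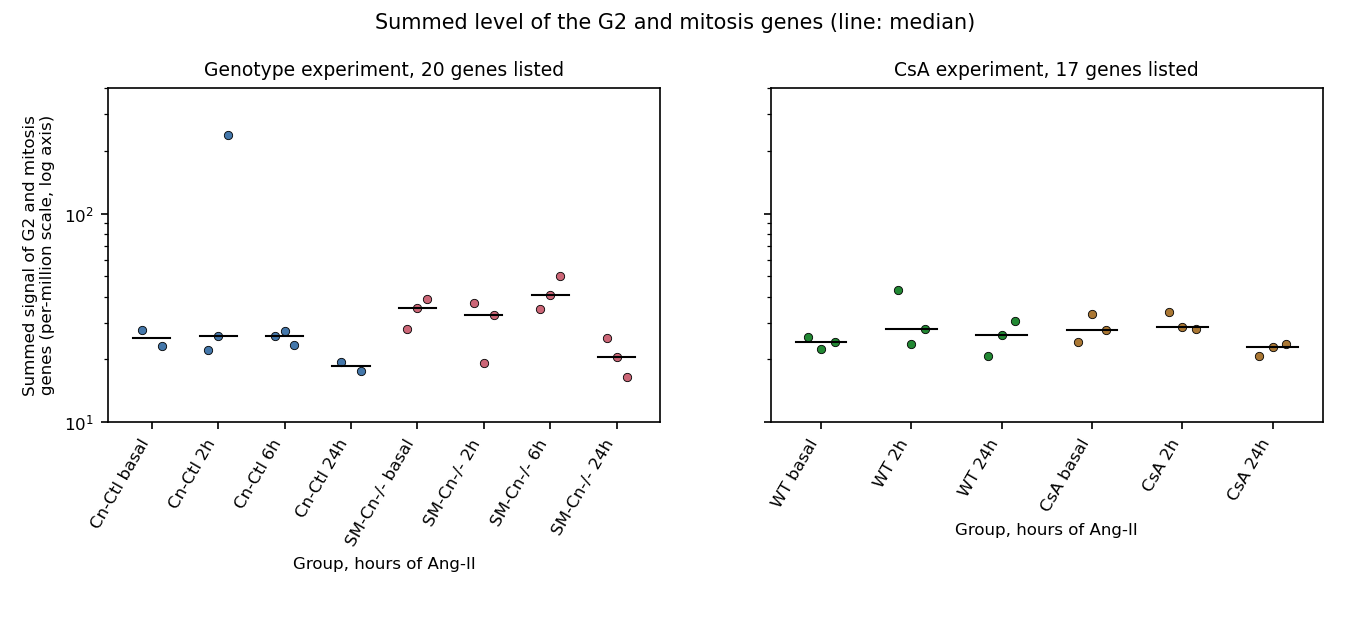
Points show the summed signal of the mitotic genes in each library on a log axis, by group, with a line at the median of each group. Cn-Ctl Ang-II 2 h replicate 3 sits at 238, and the other 39 libraries lie between 16.5 and 49.97.

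Ang-II for 2 h did not give a call for any member in Cn-Ctl. Over the 44 members 0 were called at adjusted p under 0.05 (limma, Benjamini-Hochberg over 14424 protein-coding genes), where 6.23% of the genes tested were called. The edgeR alternative also called 0, and 3 had an unadjusted p under 0.05. The median log2 change was 0.40 over the members and 0.01 over all genes, and 0.97 over the mitotic members. Prc1, which bundles microtubules of the central spindle, came closest (log2 change 2.73, adjusted p = 0.0502, limma). Its signal was 26.1 in replicate 3 and 3.39 to 4.89 in the other libraries of that group, so its change did not rest on replicate 3 alone. The median over all libraries but replicate 3 was 1.81. For Mki67 the log2 change was 1.11 ± 0.83 (SE, adjusted p = 0.531) and for Top2a 0.84 ± 0.82 (adjusted p = 0.663). Without Cn-Ctl Ang-II 2 h replicate 3 the count was again 0, and it was 1 without replicate 2 of that group or without replicate 2 of Cn-Ctl basal.

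Later times gave 1 call, a fall of cyclin D2. After 6 h 0 of 44 members were called in Cn-Ctl (3.97% of genes tested, edgeR 0, unadjusted p under 0.05 for 3), and after 24 h 1 was (5.62%). Ccnd2 pairs with Cdk4 and Cdk6 and had the highest median signal per kb of merged exons. It was at 395 and 379.5 in Cn-Ctl basal, at 403, 375 and 344 after 2 h, at 246, 273 and 311 after 6 h and at 208 and 199.7 after 24 h. The 24 h libraries all lay below the basal ones, a 1.90-fold difference (log2 change -0.93 ± 0.17 SE, adjusted p = 0.00235, limma), and the call held under all 12 alternatives, which gave log2 changes from -0.98 to -0.90. Without Cn-Ctl Ang-II 24 h replicate 3 the count of called members was 2. Summed macrophage markers were higher in the 24 h libraries, at 157 to 247 against 68.3 to 94.3 in the basal ones. Their part in the Ccnd2 difference was not tested.

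In the libraries labelled SM-Cn-/- no member was called after 2 h (1.13% of genes tested), 6 h (2.34%) or 24 h (0.790%). The edgeR alternative called 0 at each time, and an unadjusted p under 0.05 was reached by 2, 6 and 0 members. Ccnd2 was at 263, 373 and 306 in SM-Cn-/- basal, at 334, 307 and 335 after 2 h, at 247, 214 and 224 after 6 h and at 279, 269 and 263 after 24 h. At 24 h its log2 change was -0.20 ± 0.14 (adjusted p = 0.644), and its response differed from that of Cn-Ctl by 0.72 ± 0.22 on the log2 scale (adjusted p = 0.157), which did not pass the threshold.

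Between the genotypes the only member called was Mcm6, a subunit of the helicase that is loaded at origins and unwinds DNA (chr1:128331590-128359664, minus strand, GRCm38). Its signal was 60.7 and 56.7 in Cn-Ctl basal, 94.8, 95.9 and 111 after 2 h, 108, 131 and 96.7 after 6 h and 97.5 and 58.6 after 24 h. In the libraries labelled SM-Cn-/- it was 31.3, 52.7 and 26.4 (basal), 50.4, 43.7 and 38.2 (2 h), 60.3, 51.8 and 34.5 (6 h) and 47.7, 46.4 and 39.0 (24 h). At each of the 4 times all SM-Cn-/- libraries lay below all Cn-Ctl libraries. Mcm6 was 2.28-fold lower after 2 h (log2 difference -1.19 ± 0.24 SE, adjusted p = 0.00465, limma) and 2.32-fold lower after 6 h (-1.21 ± 0.24, adjusted p = 0.00739). It was the only member called at either time, 1 of 44 (2.27%) against 3.70% of genes tested at 2 h and 1.98% at 6 h. The count of members called was thus near the share over all genes. The call at 2 h held under all 13 alternatives. The call at 6 h was lost without Cn-Ctl Ang-II 6 h replicate 2 (adjusted p = 0.0574) and without SM-Cn-/- Ang-II 6 h replicate 3 (adjusted p = 0.0751).

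The other times showed the same direction for Mcm6 without passing the test, at -0.73 ± 0.27 in the basal state (adjusted p = 0.768) and -0.77 ± 0.27 after 24 h (adjusted p = 0.117). No member was called between the genotypes in the basal state (0.0139% of genes tested, edgeR 0, unadjusted p under 0.05 for 5) or after 24 h (4.94%, edgeR 0, unadjusted p under 0.05 for 3), where the count was 1 without Cn-Ctl Ang-II 24 h replicate 2. Nor was a difference between genotypes in the response to Ang-II called for any member after 2 h (0.513% of genes tested), 6 h (0.0624%) or 24 h (0.513%). The edgeR alternative called 0 in each of these 3 tests, and 1 member had an unadjusted p under 0.05 in each. For Mcm6 the difference in response was -0.46 ± 0.36 at 2 h (adjusted p = 0.816, limma). With this SE the responses are not shown to be equal. A lower level of Mcm6 was called after 2 and 6 h, and neither a basal difference nor a difference in response was called. Summed smooth muscle markers were 24589 to 30834 in SM-Cn-/- against 26758 to 34802 in Cn-Ctl after 2 h, with 1 of 5 called lower. After 6 h they were 22353 to 27997 against 31231 to 32959, with 0 of 5 called. The basal sums were 20202 to 23626 against 27742 to 28205, with 0 of 5 called. After 24 h they were 23693 to 26405 against 26793 to 48416, with 1 of 5 called lower. The endothelial sum was 637 to 825 in SM-Cn-/- against 282 to 520.03 in Cn-Ctl after 2 h, without overlap and with 1 of 5 markers called higher. After 6 h it was 564 to 1273 against 475 to 578, with 0 of 5 called. The basal endothelial sum was 542 to 690 against 299 to 411, with 0 of 5 called. After 24 h it was 1039 to 1118 against 432 to 448, with 2 of 5 called higher. The part of either cell type in the Mcm6 difference was not tested.

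Ccnd1, Ccnd3 and Cdkn1b, also of G1 entry, were not called between the genotypes at any time. Ccnd1 was at 19.6 and 7.76 in Cn-Ctl basal, 9.67, 19.5 and 20.3 after 2 h, 22.1, 19.6 and 16.1 after 6 h and 18.5 and 14.9 after 24 h. With the SM-Cn-/- label it was at 25.8, 14.4 and 16.7 (basal), 21.8, 19.8 and 15.9 (2 h), 19.5, 25.3 and 13.01 (6 h) and 14.3, 13.2 and 11.7 (24 h). These groups overlapped at 0, 2 and 6 h, and the lowest adjusted p was 0.700, at 24 h.
Ccnd3, the D-type cyclin of many differentiated cells, was at 85.6 and 89.5 in Cn-Ctl basal, 106, 135 and 106 after 2 h, 110.3, 92.5 and 126 after 6 h and 118 and 113 after 24 h. With the SM-Cn-/- label it was at 85.6, 100.4 and 101 (basal), 73.3, 87.2 and 135 (2 h), 116, 130.1 and 154 (6 h) and 103, 103 and 123 (24 h). The groups overlapped at each time, with an adjusted p of at least 0.546.
Cdkn1b, an inhibitor of cyclin E with Cdk2, was at 121 and 94.8 in Cn-Ctl basal, 71.9, 75.1 and 92.4 after 2 h, 89.1, 101 and 59.4 after 6 h and 67.2 and 66.4 after 24 h. In the libraries labelled SM-Cn-/- it was at 91.5, 92.5 and 91.1 (basal), 86.4, 99.8 and 67.5 (2 h), 103, 90.2 and 103 (6 h) and 92.9, 100.3 and 69.1 (24 h). The genotypes overlapped at 2 and 6 h but not in the basal state (log2 difference -0.22 ± 0.22 SE, adjusted p = 0.983, limma) or at 24 h (0.37 ± 0.22, adjusted p = 0.396). In Cn-Ctl at 24 h the log2 change of Cdkn1b from basal was -0.67 ± 0.24 (adjusted p = 0.104, limma).

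The CsA experiment was sequenced more deeply and gave more calls, of which 1 was a mitotic gene. After 2 h of Ang-II 5 of 41 members were called in WT mice, 12.2% against 21.4% of the 13738 genes tested. Pcna, Rb1 and Ccnd3 rose, and Mcm4 and Mcm2 fell. Pcna was at 34.7, 39.1 and 34.9 in WT basal and at 52.4, 44.3 and 55.9 after 2 h, without overlap (log2 change 0.48 ± 0.11 SE, adjusted p = 0.00525, limma). Rb1, the gatekeeper that holds E2F factors in check, was at 29.0, 33.3 and 30.4 in WT basal and at 42.8, 37.5 and 44.5 after 2 h (0.42 ± 0.10, adjusted p = 0.00559). Both calls held under all 13 alternatives. Rb1 lay above its basal range in all 3 libraries.

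Of the 9 licensing and helicase genes 2 fell at this time, and their log2 changes ran from -0.63 to 0.19 with a median of -0.13. Mcm4 was at 13.7, 15.7 and 15.7 in WT basal and at 11.7, 11.05 and 8.25 after 2 h (log2 change -0.53 ± 0.13, adjusted p = 0.00864, limma). Mcm2 was at 6.56, 5.68 and 6.55 in WT basal and at 4.13, 4.30 and 3.21 after 2 h (-0.63 ± 0.21, adjusted p = 0.0424). Neither gene's groups overlapped, but both were picked by their calls, so this added no separate support. Without WT Ang-II 2 h replicate 3, the lowest library for both, the adjusted p was 0.0547 for Mcm4 and 0.166 for Mcm2, and Mcm2 lost its call under 7 of 13 alternatives. Ccnd3 was at 110.5, 112 and 123 in WT basal and at 151, 124 and 142 after 2 h (0.27 ± 0.09, adjusted p = 0.0396), and under quantile normalization its change was 0.04. The count of 5 called members was 8 without WT Ang-II 2 h replicate 2, and 3 without replicate 1 or 3 of that group or without replicate 1 or 2 of WT basal.

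**Figure D3:**
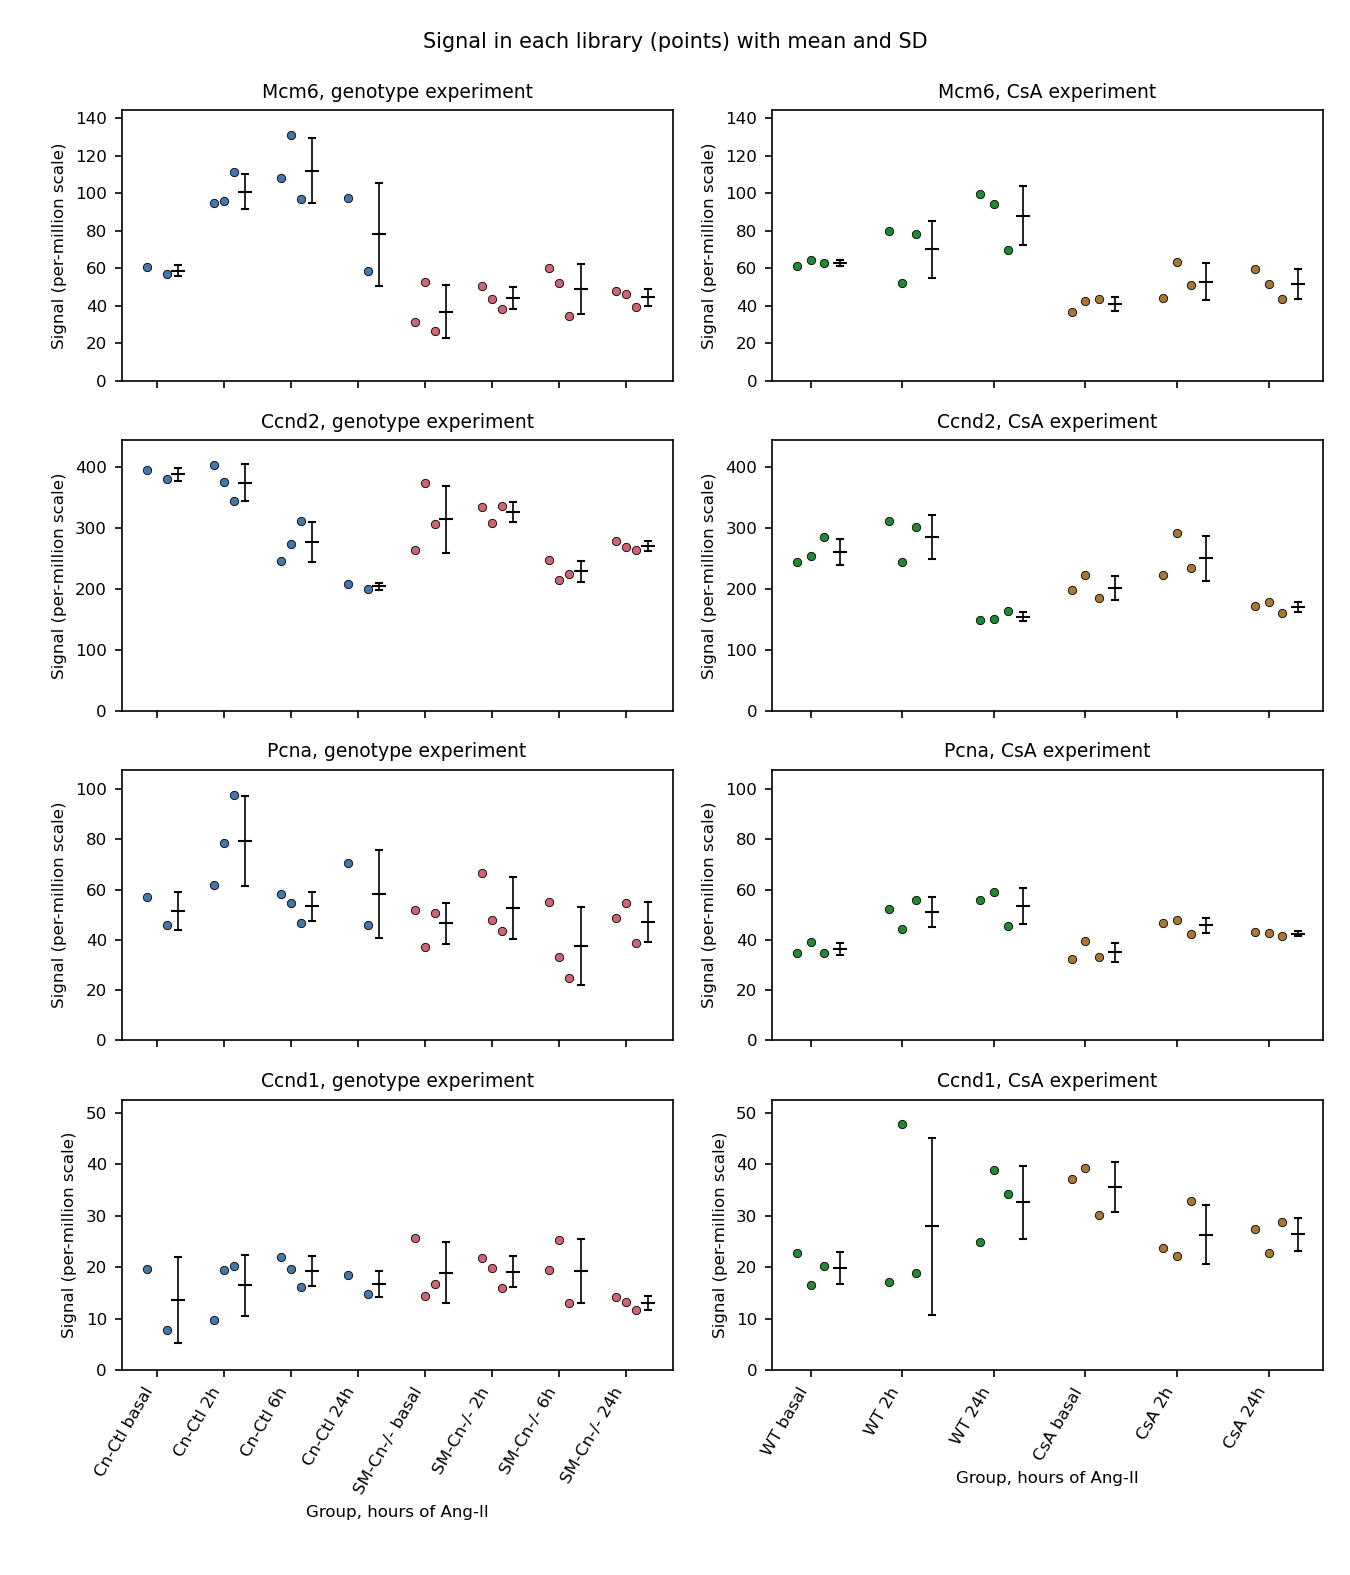
Points are the signal of Mcm6, Ccnd2, Pcna and Ccnd1 in every library by group, with the group mean and SD. Mcm6 is lower in every group labelled SM-Cn-/- than in the Cn-Ctl group of the same time, and Ccnd2 falls at 24 h in Cn-Ctl and WT.

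After 24 h of Ang-II 7 of 41 members were called in WT mice, 17.1% against 35.0% of genes tested. Ccnd2, Cdk6 and the Cdk inhibitor Cdkn1b, all of G1 entry, fell, and Pcna, Cdt1, Mcm3 and Mcm6, all of replication, rose. The role of G1 entry did not fall as a whole. Log2 changes of its 7 genes ran from -0.76 to 0.69, with a median of -0.07. They ran from 0.09 to 0.87 over the 9 licensing genes and from -0.01 to 0.55 over the 4 genes of DNA synthesis. Ccnd2 was at 243, 253 and 285 in WT basal, at 310.4, 244 and 301 after 2 h and at 149, 149.5 and 163 after 24 h, a 1.69-fold fall at 24 h (log2 change -0.76 ± 0.11 SE, adjusted p = 0.000116, limma). Cdk6, a partner kinase of the D-type cyclins, was at 30.8, 35.6 and 34.0 in WT basal and at 17.2, 20.7 and 21.6 after 24 h (-0.75 ± 0.16, adjusted p = 0.00228). Pcna was at 55.9, 58.9 and 45.3 after 24 h (0.55 ± 0.11, adjusted p = 0.00125). In each of these 3 genes all 24 h libraries lay outside the basal range, which added no separate support in genes picked by their calls. Each call held under all 13 alternatives.

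The other 4 calls at 24 h were weaker. Mcm6 was at 61.2, 64.5 and 62.6 in WT basal, at 79.7, 52.2 and 78.0 after 2 h and at 99.4, 94.1 and 69.9 after 24 h (log2 change at 24 h 0.47 ± 0.17, adjusted p = 0.0488, limma). Mcm3, another helicase subunit, was at 8.45, 7.18 and 8.74 in WT basal and at 9.05, 16.7 and 10.49 after 24 h (0.50 ± 0.19, adjusted p = 0.0487). Cdt1, which loads the helicase, was at 1.44, 1.44 and 1.48 in WT basal and at 2.38, 4.60 and 2.62 after 24 h (0.87 ± 0.29, adjusted p = 0.0254). Replicate 2 was the highest 24 h library for both. Cdkn1b was at 82.2, 80.9 and 70.4 in WT basal, at 78.1, 67.7 and 80.0 after 2 h and at 68.3, 48.8 and 65.5 after 24 h (-0.37 ± 0.12, adjusted p = 0.0279). Without replicate 2 of WT Ang-II 24 h the adjusted p was 0.287 for Mcm3, 0.145 for Cdt1 and 0.170 for Cdkn1b. The count of 7 called members was 3 without that library, 3 without replicate 1 or 2 of WT basal, 4 without replicate 3 of WT basal and 11 without replicate 1 of WT Ang-II 24 h. All 5 macrophage markers rose at 24 h in WT, their sum running from 193 to 290 against 78.1 to 117 in WT basal, and 2 of 5 smooth muscle markers fell. Their part in these calls was not tested.

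In mice given CsA, 3 of 41 members were called after 2 h of Ang-II (7.32% against 20.1% of genes tested), and all rose. Pcna was at 32.2, 39.4 and 33.3 in CsA basal and at 46.9, 47.8 and 42.4 after 2 h (log2 change 0.39 ± 0.11 SE, adjusted p = 0.0228, limma). Ccne2, a cyclin E that drives S-phase entry with Cdk2, was at 2.51, 2.10 and 1.79 in CsA basal and at 3.45, 5.59 and 4.56 after 2 h (0.92 ± 0.26, adjusted p = 0.0204). Ccnd3 was at 95.3, 93.1 and 106 in CsA basal and at 116, 127 and 112 after 2 h (0.27 ± 0.09, adjusted p = 0.0437). None of the 3 had overlapping groups, but they were picked by their calls, so this added no separate support. All 3 calls were lost without CsA Ang-II 2 h replicate 2, where the adjusted p was 0.0873 for Pcna, 0.0972 for Ccne2 and 0.171 for Ccnd3, and 1 call was left without any single library of CsA basal.

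After 24 h of Ang-II in CsA mice 1 of 41 members was called (2.44% against 8.98% of genes tested). Cenpf, a kinetochore protein, was at 1.28, 1.08 and 1.33 in CsA basal and at 0.694, 0.229 and 0.370 after 24 h, from 4 to 14 reads (log2 change -0.92 ± 0.26, adjusted p = 0.0376, limma). It was the only mitotic gene called in any of the 22 comparisons. The call was lost under 7 of 12 alternatives, among them a pseudocount of 2 (adjusted p = 0.0594) and leaving out any 1 library of CsA basal (0.0672 to 0.111) or replicate 2 (0.145) or 3 (0.0597) of CsA Ang-II 24 h. Ccnd2 was at 197, 222 and 184 in CsA basal, 223, 292 and 234 after 2 h and 171, 178 and 160.3 after 24 h. Its log2 change at 24 h was -0.24 ± 0.11 (adjusted p = 0.194).

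Mki67 and Top2a were low in all groups of the CsA experiment. Mki67 was at 2.62, 2.53 and 2.62 in WT basal, 8.34, 3.32 and 4.19 after 2 h and 1.31, 2.70 and 2.80 after 24 h. With CsA it was at 2.20, 5.73 and 3.06 (basal), 4.57, 3.27 and 4.11 (2 h) and 2.03, 1.39 and 3.70 (24 h). The WT 2 h libraries lay above WT basal, but the change of 0.81 ± 0.37 was not called (adjusted p = 0.126, limma).
Top2a was at 2.58, 2.12 and 1.52 in WT basal, 6.95, 2.77 and 3.62 after 2 h and 1.36, 2.19 and 4.01 after 24 h. With CsA it was at 2.27, 4.38 and 4.06 (basal), 4.27, 3.14 and 2.71 (2 h) and 1.36, 1.29 and 1.68 (24 h). Its change of 0.87 ± 0.34 at 2 h in WT was likewise not called (adjusted p = 0.0840, limma). With CsA all Top2a values at 24 h lay below the basal ones, a fall that was not called either. Over the 17 mitotic genes the log2 changes from CsA basal to 24 h ran from -1.03 to 0.28.

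**Figure D4:**
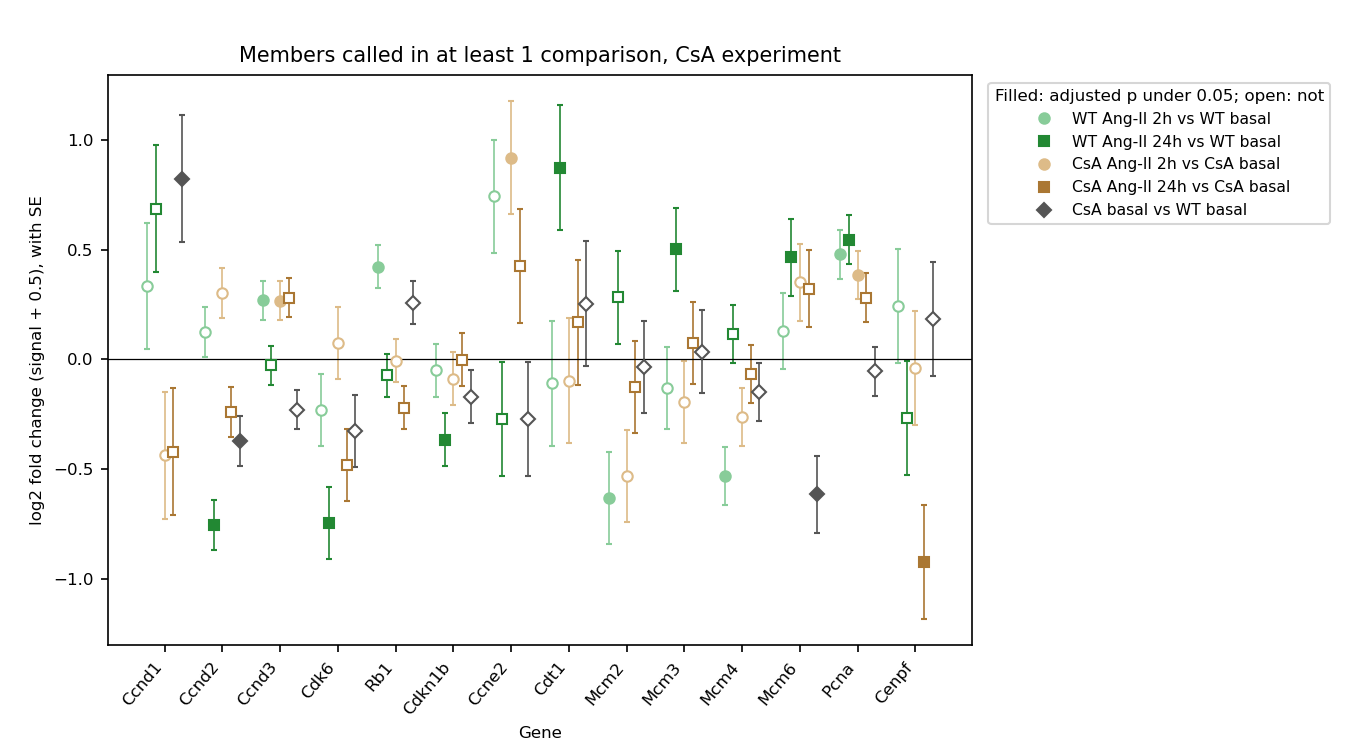
Log2 fold changes with SE are drawn for the 14 members called at least once, filled where the adjusted p was under 0.05 and open where it was not. The comparisons drawn are Ang-II 2 h and 24 h against basal, in WT and in CsA mice, and CsA basal against WT basal. Ccnd2 falls by 0.76 in WT at 24 h, and Mcm6 lies below 0 in CsA basal against WT basal.

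CsA alone, before any Ang-II, went with 3 calls among 41 members (7.32% against 25.2% of genes tested). Mcm6 was at 36.5, 42.6 and 43.7 in CsA basal, below all WT basal libraries (log2 difference -0.62 ± 0.17 SE, adjusted p = 0.0182, limma). Ccnd2 was also lower (-0.37 ± 0.11, adjusted p = 0.0259). Ccnd1 was at 22.8, 16.6 and 20.2 in WT basal and at 37.1, 39.3 and 30.1 in CsA basal, without overlap (0.82 ± 0.29, adjusted p = 0.0474). The Ccnd1 call was lost under 10 of 13 alternatives, including each of the 6 that left out a library (adjusted p 0.0584 to 0.155). For Mcm6 the call was lost without CsA basal replicate 1 (adjusted p = 0.0696) or WT basal replicate 2 (0.0564) or 3 (0.0527), and for Ccnd2 without CsA basal replicate 1 (0.0684) or 3 (0.108) or WT basal replicate 2 (0.0559) or 3 (0.111). The count was 0 without WT basal replicate 2 or 3 and 1 without CsA basal replicate 1 or 3. Cell type markers moved in the same comparison. All 5 smooth muscle markers were lower in CsA basal (sum 15675 to 17718 against 24805 to 34011), all 5 endothelial and all 5 macrophage markers were higher, and so were 4 of 5 adipose markers (sum 918 to 1635 against 182 to 367). Their part in the Mcm6, Ccnd2 and Ccnd1 differences was not tested.

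During Ang-II the pretreatments differed in 0 of 41 members after 2 h (1.33% of genes tested, edgeR 0, unadjusted p under 0.05 for 2) and in 1 after 24 h (2.44% against 5.58%). That member was again Mcm6, at 43.9, 63.4 and 51.1 in CsA Ang-II 2 h and at 59.5, 51.8 and 43.4 in CsA Ang-II 24 h. All 24 h values lay below those of WT, a 1.69-fold difference (log2 difference -0.76 ± 0.17 SE, adjusted p = 0.0220, limma). The call was lost without CsA Ang-II 24 h replicate 2 (adjusted p = 0.0655) or 3 (0.0707) or WT Ang-II 24 h replicate 1 (0.0798) or 2 (0.123), and 2 members were called when WT Ang-II 24 h replicate 3 was left out. No list of cell type markers had more than 1 member called in this comparison, although few calls on short lists do not show equal composition. The adipose sum was 583 to 1737 in CsA against 398 to 476 in WT, without overlap and with 0 of 5 markers called. The smooth muscle sums overlapped, at 18396 to 26821 against 23223 to 32407. The part of any cell type in the Mcm6 difference was not tested.

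For no member was a difference in the response to Ang-II between CsA and WT called, after 2 h (0.146% of genes tested, edgeR 0, unadjusted p under 0.05 for 1) or after 24 h (9.42%, edgeR 1, unadjusted p under 0.05 for 4). The count at 24 h was 1 without CsA Ang-II 24 h replicate 3 or CsA basal replicate 2. Of the 4 members with an unadjusted p under 0.05 at 24 h, 3 were of G1 entry and 1 was mitotic. Differences in response of the 17 mitotic genes ran from -1.19 to 0.27. D-type cyclins were among the members near the threshold. Ccnd2 responded less negatively with CsA by 0.52 ± 0.16 on the log2 scale (adjusted p = 0.0553, limma). Ccnd1 was at 17.2, 47.7 and 18.9 in WT Ang-II 2 h and 24.8, 38.8 and 34.2 in WT Ang-II 24 h, and at 23.8, 22.2 and 32.9 in CsA Ang-II 2 h and 27.5, 22.8 and 28.8 in CsA Ang-II 24 h. The difference in response of Ccnd1 at 24 h was -1.11 ± 0.41 (adjusted p = 0.0951). Ccnd3 was at 104, 118 and 116 in WT Ang-II 24 h and at 124, 124 and 110.4 in CsA Ang-II 24 h (0.31 ± 0.13, adjusted p = 0.128). Cdkn1b was at 72.5, 66.7 and 67.9 in CsA basal, 63.1, 63.4 and 68.3 after 2 h and 70.9, 77.4 and 59.6 after 24 h, and its difference in response at 24 h was 0.36 ± 0.17 (adjusted p = 0.186). WT basal and CsA basal libraries enter several of these comparisons, so that the values of Mcm6 and Ccnd2 above are not independent of each other. For the difference in response at 24 h, 4 of 5 macrophage and 3 of 5 endothelial markers were called lower and 1 of 5 smooth muscle markers higher. The part of these cell types in the differences of Ccnd2 and Ccnd1 was not tested.

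Over the 22 comparisons, 13 between genotype libraries and 9 between CsA libraries, 14 members were called at least once and 30 were never called. The 23 calls fell on Ccnd1, Ccnd2, Ccnd3, Cdk6, Cdkn1b and Rb1 of G1 entry, Ccne2 of the G1/S transition, Mcm2, Mcm3, Mcm4, Mcm6 and Cdt1 of licensing, Pcna of DNA synthesis and Cenpf of mitosis. Cdk4, Ccne1, Cdk2, E2f1, Mcm5, Mcm7, Cdc6, Cdc45, Rrm1, Rrm2 and Tyms were never called, nor were the other 19 mitotic genes.

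Other genes of the cycle were taken from a list of 94, of which 87 were tested among the genotype libraries and 78 among the CsA libraries. In the genotype experiment each comparison called at most 2 of the 87 (2.30%). In Cn-Ctl the shares were 2.30%, 1.15% and 2.30% after 2, 6 and 24 h, against 6.23%, 3.97% and 5.62% of genes tested. In SM-Cn-/- they were 2.30% and 1.15% after 2 and 6 h, against 1.13% and 2.34%. Between genotypes they were 1.15% after 2 h and 1.15% after 24 h, against 3.70% and 4.94%. In Cn-Ctl, Zwint (0.73, adjusted p = 0.0242, limma) and Anln (1.24, adjusted p = 0.0480) rose after 2 h, and Wee1, the kinase that holds Cdk1 inactive, fell by 2.32 on the log2 scale after 24 h (adjusted p = 0.00661). Pttg1, the securin that guards sister chromatids, fell after 6 h (-0.80) and 24 h (-0.93) in Cn-Ctl. In the libraries labelled SM-Cn-/-, Rpa1, which coats single-stranded DNA, rose after 2 h (0.94) and 6 h (0.93), and Cenpa fell after 2 h (-2.33). Between genotypes Zwint was lower in SM-Cn-/- after 2 h (-0.71) and Dut after 24 h (-1.42).

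In the CsA experiment these other genes were called at shares near or below the background. In WT 4 rose and 11 fell of 78 after 2 h (19.2% against 21.4%), led by the phosphatase Cdc25b (log2 change -1.23), the polymerase subunit Pold1 (-0.66), Gins3 (-1.25) and Rpa2 (-0.79). After 24 h 11 rose and 7 fell (23.1% against 35.0%), led by the pocket protein Rbl2 (-0.73), Pttg1 (-0.65), Cdkn1c (-0.58) and Wee1 (-1.23). In CsA mice 6 rose and 9 fell after 2 h (19.2% against 20.1%), led by Pold1 (-0.92), Cdc25b (-0.87), Cdc27 (0.59) and Gmnn (-1.12). After 24 h 2 rose and 2 fell (5.13% against 8.98%), Prim2 (0.55) and Rpa1 (0.48) upward and Pttg1 (-0.40) and Cdkn1c (-0.33) downward. Before Ang-II, CsA basal differed from WT basal in 6 (7.69% against 25.2%), among them higher Cdkn2c (1.37), Gmnn (0.99) and Cdkn1c (0.28) and lower Orc4 (-0.31). At 24 h of Ang-II, CsA and WT differed in 3 (3.85% against 5.58%). Cdkn1c (0.53) and Rbl2 (0.38) were higher and E2f3 (-0.80) was lower in CsA than in WT.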

How the data were processed

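RNA-Seq libraries (oligo-dT, Illumina Genome Analyzer IIx) were processed by the authors with Bowtie 0.12.7 and RSEM 1.16 on GRCm38, per the labels' processing notes. The authors deposited 1 table of normalized signal per experiment, in which each value is the read count plus 0.5 divided by a scaled library size. Whole reads were recovered from these steps for 100% of values, to within 0.01 reads. Groups were taken from the labels. Each experiment was fitted by itself with limma 3.58.1 in R 4.3.3 on log2(signal + 0.5), with 1 mean per group, an intensity trend and two-sided tests. The test covered protein-coding genes (GENCODE M21) with a signal of at least 1 in at least 2 libraries. P-values were adjusted over all genes tested (Benjamini-Hochberg) and called under 0.05. Fold changes are on the log2(signal + 0.5) scale and understate changes of low genes. An edgeR 4.0.16 quasi-likelihood test on recovered reads, another pseudocount, other filters, quantile normalization, a replicate block and leaving out each library were alternatives. Scripts were tested on simulated data. Libraries of a group differed by more than sampling noise (chi-square per degree of freedom at least 6.21), so none was counted as a duplicate. Members were chosen by symbol, and the members and lists were chosen with earlier results of these data known. All 44 are described. Values in every library are given for Mki67, Top2a, Ccnd1, Ccnd2, Ccnd3 and Cdkn1b and for up to 6 called members per comparison with the lowest adjusted p, and up to 4 other cell cycle genes are named per comparison by the same rule. Mcm6 in WT Ang-II 24 h, outside this rule, was added after its values were seen. Promoters were read from a RefSeq table of GRCm38.p6.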

Additional observations from a re-analysis of the deposited data

Results flagged for a closer look

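No group held 4 or more libraries, so single libraries were not tested as outliers. Of the other cell cycle genes, 3 of 78 (3.85%, against 9.42% of genes tested) responded differently to 24 h of Ang-II with CsA than without it. This was the test of the difference in response (limma, Benjamini-Hochberg over 13738 genes). Wee1, the kinase that restrains Cdk1, was at 37.1, 32.5 and 27.997 in WT basal and 9.41, 17.4 and 14.9 in WT Ang-II 24 h, and at 22.3, 33.2 and 19.1 in CsA basal and 26.1, 22.4 and 17.5 in CsA Ang-II 24 h (difference in response 1.08 ± 0.31 SE on the log2 scale, adjusted p = 0.0404). Rbl2 was at 67.1, 71.5 and 67.9 in WT basal and 43.1, 36.2 and 45.2 after 24 h, and at 66.7, 66.4 and 60.4 in CsA basal and 54.8, 56.2 and 50.5 after 24 h (0.47 ± 0.12, adjusted p = 0.0276). Cdc25b was at 24.9, 22.9 and 24.9 in WT basal and 20.1, 16.1 and 21.0 after 24 h, and at 21.4, 17.3 and 20.4 in CsA basal and 23.9, 24.1 and 21.2 after 24 h (0.57 ± 0.16, adjusted p = 0.0386). In the same test 4 of 5 macrophage markers (median -1.53) and 3 of 5 endothelial markers (median -0.93) were called lower. Of the smooth muscle markers 1 of 5 was called higher. The cause of these differences, and the part of any cell type in them, was not tested.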

How the results depend on the processing

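Of 154 counts of called members recomputed under other settings with all libraries kept, 142 stayed within 1.5 times the reported count. Most reported counts were 0 or 1, so this share says little about single calls. Of the 22 named calls, quantile normalization kept 15 and lost 7. No named call changed direction under any alternative. With the replicate block the counts were 1 for Cn-Ctl at 2 h, 1 for Cn-Ctl at 6 h and 1 for SM-Cn-/- against Cn-Ctl at 24 h, each against 0. Same-numbered libraries showed little shared deviation, with a median correlation of 0.0587 in the genotype and -0.0283 in the CsA experiment. Libraries of different numbers had medians of -0.0419 and -0.0129. The main fits did not pair libraries by number, and these values cannot exclude shared handling of same-numbered ones. For Cn-Ctl at 6 h a mean of at least 5 gave 1 and quantile normalization 1, and for SM-Cn-/- at 6 h quantile normalization gave 1, each against 0. For CsA at 24 h, 1 call became 0 with a pseudocount of 2, 0 with a mean of at least 5 (where Cenpf was no longer tested), 2 with quantile normalization and 2 with edgeR, and for the difference in response between CsA and WT at 24 h both quantile normalization and edgeR gave 1 against 0. The cause of these moves was not tested. Leaving out 1 library at a time, a lone library being assumed to vary like the other groups, gave counts of 0 to 1 for Cn-Ctl at 2 h, 1 to 2 for Cn-Ctl at 24 h, 0 to 1 for SM-Cn-/- against Cn-Ctl at 6 h and 0 to 1 at 24 h. In the CsA experiment it gave 3 to 8 for WT at 2 h, 3 to 11 for WT at 24 h, 0 to 3 for CsA at 2 h, 0 to 1 for CsA at 24 h, 0 to 2 for CsA basal against WT basal, 0 to 2 for CsA against WT at 24 h and 0 to 1 for the difference in response at 24 h. For the 22 named calls, 75 of 132 repeats without 1 library kept the call. The added alternative without Cn-Ctl Ang-II 2 h replicate 3, in 10 comparisons that do not use it, was chosen after seeing the data and moved no count. Depth limits the mitotic genes most, at a median of 0 to 18 reads per library in the genotype experiment.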
